A study of Mus musculus with 48 samples.

Results

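Tumours of 2 mouse models of medulloblastoma (MB), a cancer of the cerebellum, were compared on Illumina Mouse8 Reference arrays: 6 tumours of *Ptch*+/- mice (*Ptch*+/- controls, arrays B1 to B6) and 6 tumours of GTML mice (arrays S1 to S6). They were chosen by sample title from 48 arrays, 1 per animal, which also hold 30 tumours of *Ptch*+/- mice with Sleeping Beauty transposition (SB tumours) and 6 normal cerebella. The *Ptch*+/- controls have the genotype Ptch+/-;T2Onc+/- and the strain CBA/J: they carry the T2Onc transposon but not the transposase, and the study's methods describe lines backcrossed to CBA for 3 generations. GTML mice have the genotype GLT1-tTA-+/TML-+, and the labels give GTML as their strain as well. The promoter of *Glt1*, the glutamate transporter of astrocytes, drives the tetracycline transactivator in this model. The labels name MYC as its predisposing gene, while the author contributions speak of a MYCN model. The cerebella are T2Onc+/-;SB11+/-, with no *Ptch* mutation in their genotype. They thus carry both the transposon and the transposase (SB11), the genotype of the study's transposition controls. Neither of the 2 tumour models compared had transposition. At collection the animals were 10 to 28 weeks old for the *Ptch*+/- controls (median 17.5), 14 to 20 for GTML (median 15) and 6 to 7 for the cerebella, and the SB tumours came from animals 7 to 24 weeks old (median 17). Strain, transgene and any difference in handling or hybridisation cannot be told apart from the model, since each model had its own. The p-values measure the spread between animals of these 2 groups.

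Ptch is the receptor that holds the sonic hedgehog (SHH) pathway off in the absence of its ligand. Mice with 1 working copy develop MB from granule neuron precursors, the cells that divide under SHH in the young cerebellum. Tumours of GTML mice are driven instead by a MYC family transcription factor switched on by the transactivator. The comparison asks how far the RNA of tumours from these 2 starting points differs, with cerebella and SB tumours as reference levels.

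The deposited values are log2 signals, made with RMA by the authors, with array medians of 6.73 to 6.74. Of the 25697 probes, 8 have a gene name in the study's supplementary tables, and the others are reported as counts or by number. The study chose these 8 genes for a difference between 2 kinds of SB tumour, and so on none of the 12 arrays compared here. *Ptch1*, *Mycn* and the defining markers of the tumour cells have no named probe, so the labels could not be checked against them. Where a group mean lay within 0.2 of the array median (at or under 6.94), it is not known whether the signal exceeded background, since no detection calls were used. For such probes the log2 difference between the deposited signals is given as such, with no fold, and it may understate the difference in RNA. The 2-fold counts include them. In whole tumours, fewer cells of a type and less RNA per cell cannot be told apart.

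Control B4 stood apart from the other *Ptch*+/- controls. Its profile correlated across probes at r = 0.966 with the mean of the cerebella and at 0.934 with the mean of the other 5 controls, whereas the other controls correlated at 0.824 to 0.890 with the cerebella and at 0.970 to 0.982 with the rest of their own group. It came from the youngest animal, at 10 weeks against 15 to 28 weeks for the others. The counts, the named genes and the shares below are therefore given with and without it. Within the GTML group no array stood apart, with r of 0.979 to 0.994 to the rest of the group and of 0.808 to 0.875 to the cerebella.

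Over the whole array, many probes were called in each direction, in similar numbers. At an adjusted p under 0.05 from limma, 3414 of 25697 probes (13.3%) were called, of which 1583 (6.16%) were higher in *Ptch*+/- controls and 1831 (7.13%) higher in GTML tumours. At least 2-fold differences were called for 476 probes (1.85%), 246 (0.957%) higher in *Ptch*+/- controls and 230 (0.895%) higher in GTML tumours. A difference of 2 or more on the log2 scale was seen for 43 probes higher in *Ptch*+/- controls and 28 higher in GTML tumours, and of 3 or more for 5 and 6. Without B4 these were 50 and 27, and 5 and 6. The median size of the difference was 0.46 over called probes and 0.04 over all probes, on the log2 scale.

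**Figure D1:**
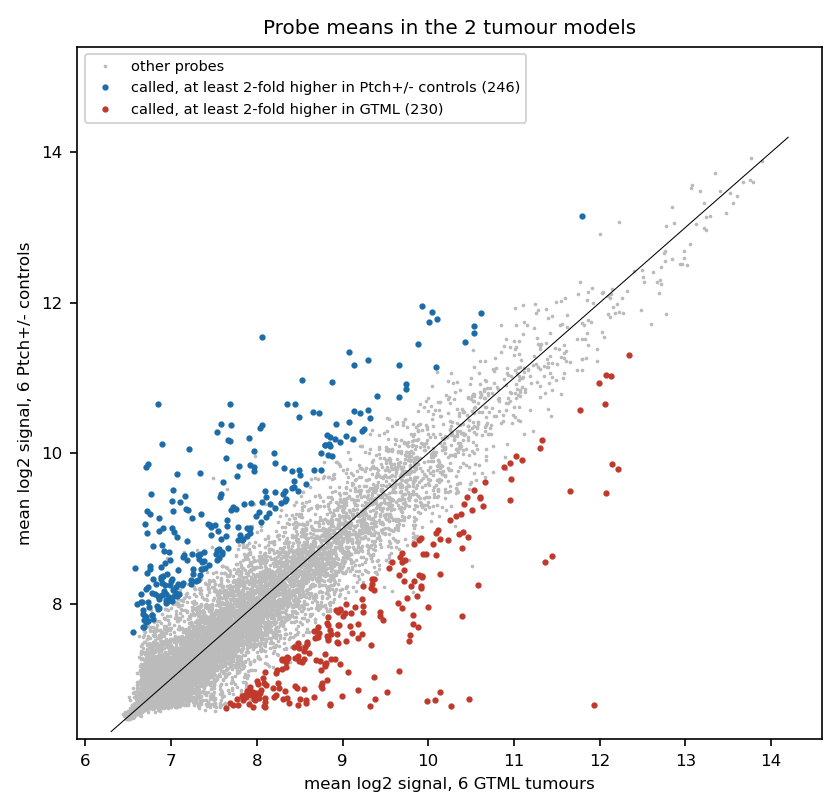
Mean log2 signal of each of 25697 probes in 6 GTML tumours (x axis) and 6 *Ptch*+/- controls (y axis), with the line of equal means. Called probes with at least a 2-fold difference lie on both sides, 246 higher in *Ptch*+/- controls (blue) and 230 higher in GTML tumours (red), and some of each lie at the lowest signals of the other model.

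Complete separation of the 2 groups was common among the large differences. The 6 controls and 6 GTML arrays did not overlap for 2073 of all probes (8.07%), with the controls higher for 961 (3.74%) and the GTML tumours higher for 1112 (4.33%), and for 418 of the 476 probes with 2-fold differences (87.8%). A gap of at least 1 on the log2 scale between the closest arrays of the groups was found for 40 probes in each direction, and a gap of at least 2 for 1 probe higher in *Ptch*+/- controls and 8 higher in GTML tumours. Without B4, 2733 probes (10.6%) did not overlap, 1352 (5.26%) with the controls higher and 1381 (5.37%) with the GTML tumours higher, and the gap reached 1 for 60 and 53 probes. A gap of at least 2 was then found for 16 probes higher in the other 5 controls and 11 higher in GTML tumours. Leaving out any array can only keep or widen a gap, so these counts could not fall. They were not made without any other array, so a part particular to B4 was not tested.

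Without B4, 3670 probes (14.3%) were called, 1806 (7.03%) higher in *Ptch*+/- controls and 1864 (7.25%) higher in GTML tumours, with 2-fold differences for 495 (1.93%). Of these calls 3099 were made in both fits, all in the same direction, which is 90.8% of the calls with B4 and 84.4% of those without it.

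Igf2 is a secreted growth factor that signals through the IGF1 receptor, and in mice it is known as a gene that *Ptch* mutant MB needs. Its signal was 8.01 at the lowest, 9.06 at the median and 11.94 at the highest in *Ptch*+/- controls, and 6.88, 7.79 and 8.00 in GTML tumours. The groups did not overlap, but only by 0.02, and the controls were widely spread, with B4 and B2 (10.76) at the top. The means were 9.53 ± 1.51 and 7.66 ± 0.40 (SD, n = 6 each), a difference of 1.87 (SE 0.59, 95% confidence interval 0.58 to 3.17). It did not pass the limma test over all probes (adjusted p = 0.0601, or 0.0521 without B4, where the difference was 1.39). It passed without B5 (2.11, adjusted p = 0.0462) or without B6 (2.18, adjusted p = 0.0318), the controls with the lowest signals (8.35 and 8.01). Leaving out any other single array gave an adjusted p of 0.0521 (B4) to 0.121 (S3) by limma. The two-sided exact permutation test gave p = 0.00216 both with and without B4, the smallest that these group sizes allow. Groups of 6 against 6 arrays that do not overlap always give this p. With all 6 controls, 2073 of all probes (8.07%) had such groups, so it adds nothing to the separation. Cerebella had a mean of 10.38 and SB tumours of 10.35, both above the mean of either model. The SB tumours were widely spread (SD 1.52), from 7.8, within the GTML range, to 12.3. The 11.94 in B4 exceeded every cerebellum (highest 10.82).

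Rnd3 is a small GTPase that acts on the actin cytoskeleton. In *Ptch*+/- controls its signal ranged from 7.98 to 9.44 with a median of 8.43, and in GTML tumours from 6.88 to 7.40 with a median of 7.13. Every control lay above every GTML tumour, and B4 was the lowest control. The difference was 1.48 on the log2 scale (SE 0.26, adjusted p = 0.00211 from limma), or 2.80-fold, and 1.61 without B4 (adjusted p = 0.00109). GTML tumours (mean 7.14) were closer to cerebella (6.78) than to SB tumours (8.64), whose mean was close to the control mean of 8.62.

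Promoter sequence is shown for 3 genes that behaved differently: *Rnd3*, which separated the models, *Igf2*, which had the largest SD of the 8 within the *Ptch*+/- controls, and *Lyz2*, described below, which overlapped between the models. Each is the 250 bases before an annotated start, from RefSeq on GRCm38.p6, printed 5′ to 3′ on the strand of the gene. Capitals mark TATAAA, the letters of the TATA box.
Rnd3, chr2:51149112-51149361, minus strand: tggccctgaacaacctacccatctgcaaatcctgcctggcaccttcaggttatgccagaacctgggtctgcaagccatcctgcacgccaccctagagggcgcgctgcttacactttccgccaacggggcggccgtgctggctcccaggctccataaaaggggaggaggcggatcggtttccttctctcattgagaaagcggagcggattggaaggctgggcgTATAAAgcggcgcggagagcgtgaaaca
Igf2, chr7:142666817-142667066, minus strand, the start farthest upstream: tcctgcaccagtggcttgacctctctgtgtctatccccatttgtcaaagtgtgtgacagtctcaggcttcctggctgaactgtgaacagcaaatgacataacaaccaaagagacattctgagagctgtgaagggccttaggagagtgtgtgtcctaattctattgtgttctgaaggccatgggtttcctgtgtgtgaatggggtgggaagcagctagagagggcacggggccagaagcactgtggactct
Lyz2, chr10:117282273-117282522, minus strand: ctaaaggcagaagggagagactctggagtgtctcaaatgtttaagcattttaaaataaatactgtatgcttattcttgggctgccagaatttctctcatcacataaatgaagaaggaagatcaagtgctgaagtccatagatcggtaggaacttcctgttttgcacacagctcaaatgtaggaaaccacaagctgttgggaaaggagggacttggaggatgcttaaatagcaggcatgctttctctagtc
The *Rnd3* sequence holds 16 CpG and 60% G and C, and that of *Lyz2* 1 CpG and 41.6%, against medians of 6 CpG and 52.4% over 32851 mouse promoters. The *Igf2* starts differ among themselves: the window shown holds 1 CpG, and the other 3 hold 10, 22 and 6. TATAAA was found once in *Rnd3*, close to its start, and in neither *Lyz2* nor any of the 4 *Igf2* windows. On either strand, 12.4% of all promoters hold it. The E-box letters CACGTG, which read the same on both strands and which MYC proteins bind (6.02% of all promoters), and the GLI site GACCACCCA or TGGGTGGTC (0.225%) were found in none of these sequences. A window of *Kank1*, also called between the models, was searched too and is not shown. It holds 24 CpG, 67.6% G and C and none of the letters searched. Windows of the other named genes were not read, so no link between sequence and behaviour was tested. The letters to search were chosen with these sequences and results in view. The array files give no signal for single starts of *Igf2*.

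Hsd11b2 converts active glucocorticoids to inactive forms. Its signal was 7.44, 7.96 and 8.36 (lowest, median and highest) in *Ptch*+/- controls, and 6.63, 6.67 and 6.69 in GTML tumours. GTML tumours thus lay together at the array median, as did the cerebella (mean 6.64), and every control lay above them. The difference was 1.24 on the log2 scale (SE 0.15, adjusted p = 0.000201 from limma), and 1.34 without B4 (adjusted p = 6.94e-05). SB tumours had a mean of 8.12.

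LOC100046457, a gene model with no entry in the mouse reference used here, had signals of 7.89, 8.60 and 8.97 in *Ptch*+/- controls and of 6.81, 6.92 and 7.16 in GTML tumours. Here the GTML tumours were alone in being low: cerebella had a mean of 8.40 and SB tumours of 8.30, against 8.53 in controls and 6.93 in GTML tumours. That GTML mean is at the level (at or under 6.94) where signal may not exceed background, so the difference in RNA may be understated. The difference between the models was 1.60 on the log2 scale (SE 0.15, adjusted p = 3.08e-05) and 1.63 without B4 (adjusted p = 6.08e-05), both from limma. It ranked 182nd of all probes by p.

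Kank1 is an adaptor protein that restrains actin polymerisation at the cell cortex. Its signal was 7.62, 7.80 and 8.55 in *Ptch*+/- controls and 6.96, 7.26 and 7.68 in GTML tumours. The groups overlapped slightly: S5, the highest GTML tumour, exceeded B1 and B2. The difference was 0.66 on the log2 scale (SE 0.18, adjusted p = 0.0270), or 1.58-fold, and 0.70 without B4 (adjusted p = 0.0293), by limma. The call was lost without B5, S3, S4 or S6, with differences of 0.59 to 0.64 and adjusted p of 0.0583 to 0.0609. Cerebella (7.56) lay between the 2 models and SB tumours (8.05) near the controls.

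The other 3 named genes did not pass the test. Aqp4 is the water channel of astrocytes, and it was 7.82, 8.78 and 9.64 in *Ptch*+/- controls and 7.07, 8.03 and 8.73 in GTML tumours. The controls fell into a lower trio (B1, B2 and B5, at 7.82 to 8.08) and an upper trio (B3, B4 and B6, at 9.48 to 9.64) above every GTML tumour, and all tumours of both models were below every cerebellum (lowest 10.28). The difference was 0.79 (95% confidence interval -0.10 to 1.68, adjusted p = 0.287 from limma), and 0.65 without B4 (adjusted p = 0.420).

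Lyz2, a lysozyme of macrophages and other myeloid cells, was high in most tumours of both models, at 7.77, 9.97 and 10.84 in *Ptch*+/- controls and at 8.33, 9.66 and 10.09 in GTML tumours, while the 6 cerebella lay at 6.70 to 6.89. B4 had the lowest signal of the 12 tumours. The difference was 0.31 (95% confidence interval -0.76 to 1.37, adjusted p = 0.796 from limma), and 0.69 without B4 (-0.09 to 1.48, adjusted p = 0.279).

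Loxl1, which helps to crosslink elastin in the extracellular matrix, was 7.84, 8.24 and 9.38 in *Ptch*+/- controls and 6.79, 8.33 and 9.30 in GTML tumours, so that the 2 ranges nearly coincided at the top. S6 and S3 (7.41) were the lowest of all 12, and these arrays were also the lowest for *Aqp4*. The difference was 0.37 (95% confidence interval -0.55 to 1.30, adjusted p = 0.695 from limma), and 0.41 without B4 (adjusted p = 0.685). Of *Aqp4*, *Lyz2* and *Loxl1*, each as the single named marker of astrocytes, myeloid cells or mesenchyme, none can stand for its cell type, and the part of such cells in the other differences was not tested.

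**Figure D2:**
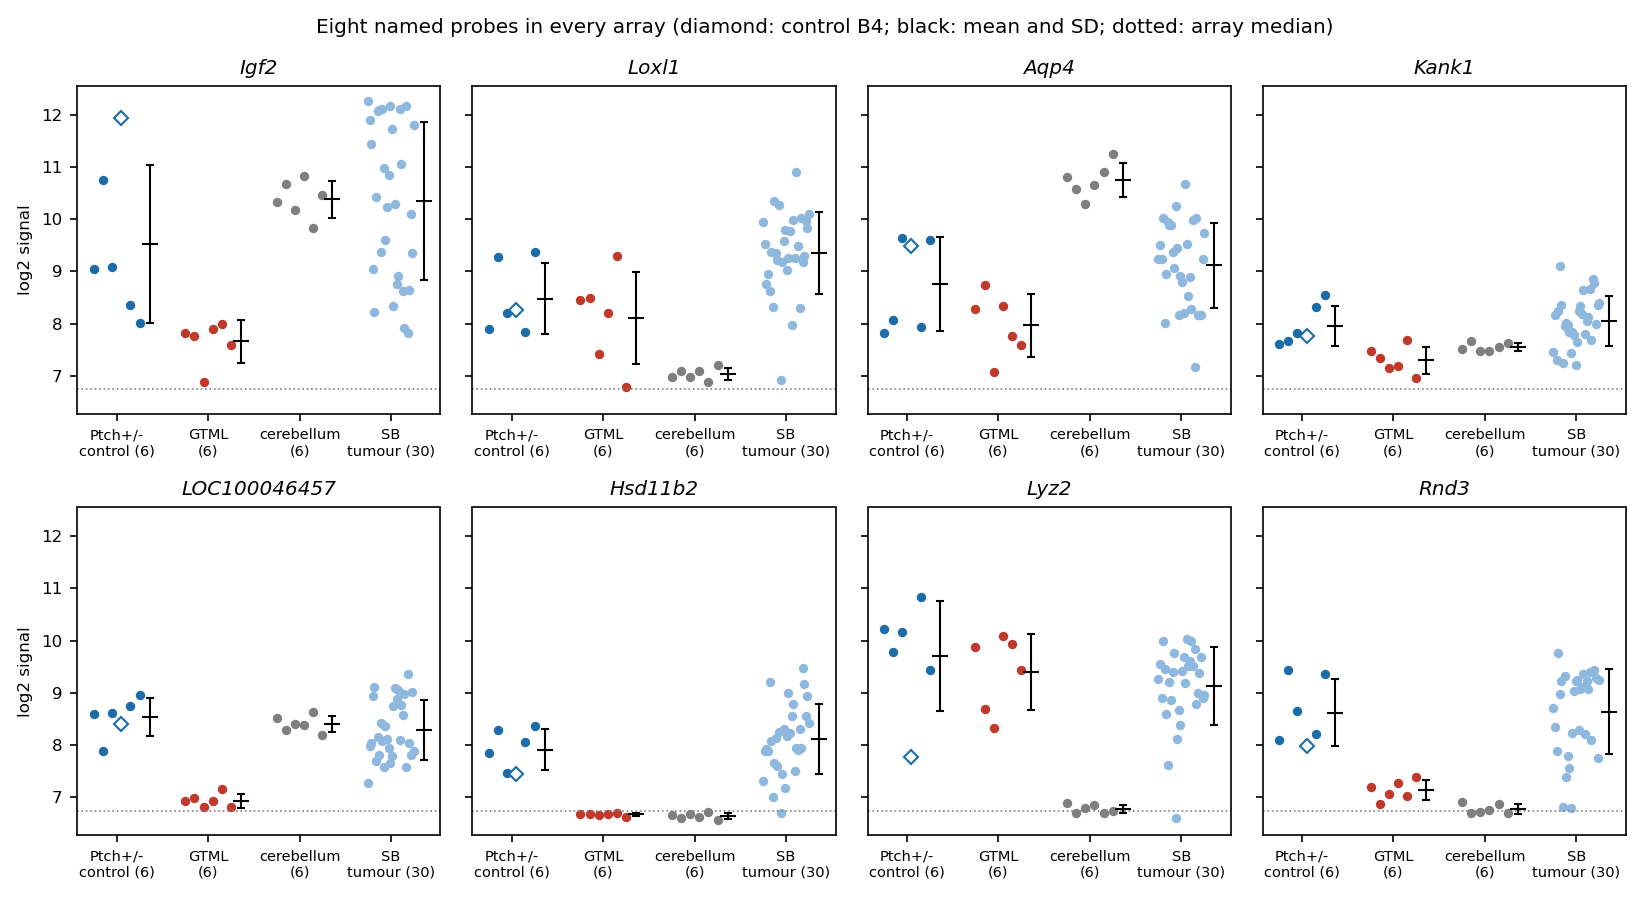
Log2 signal of the 8 named probes in each of 48 arrays by group, with B4 as an open diamond and the mean and SD in black. *LOC100046457*, *Hsd11b2* and *Rnd3* separate the 6 *Ptch*+/- controls from the 6 GTML tumours, *Igf2* does so by 0.02 only, and *Kank1*, *Aqp4*, *Lyz2* and *Loxl1* overlap.

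The 4 probes given by number had the largest called differences between deposited signals in each direction, and 3 of them lay near the array median in the mean of the lower model. ILMN_1247683 was 6.59 to 6.73 in the 6 *Ptch*+/- controls and 11.72 to 12.11 in the 6 GTML tumours, a difference of -5.29 (SE 0.07, controls minus GTML, adjusted p = 7.95e-13 from limma, or -5.28 and 1.96e-11 without B4). It had the smallest p of all probes, and all 36 cerebella and SB tumours also lay at the array median, between 6.60 and 6.74. ILMN_2980815 was 6.66 to 6.86 in controls and 10.08 to 11.25 in GTML tumours (difference -3.74, SE 0.16, adjusted p = 1.84e-07, or -3.74 and 3.74e-07 without B4). Cerebella had a mean of 6.74 for it, and SB tumours a median of 6.76 with a highest value of 8.28.

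In the other direction, ILMN_2690126 was 10.70 to 11.82 in 5 *Ptch*+/- controls, 7.50 in B4, and 6.65 to 7.08 in GTML tumours. The difference of 3.81 (SE 0.61, adjusted p = 0.00137) became 4.45 (SE 0.19, adjusted p = 2.09e-07) without B4, both by limma, and cerebella had a mean of 6.78. SB tumours ranged widely for this probe, from 6.66 to 12.05 with a median of 10.69. ILMN_2662264 was 10.52 to 12.35 in controls and 6.80 to 9.59 in GTML tumours, with S3 and S6 lowest and S2 highest (difference 3.49, SE 0.48, adjusted p = 0.000448, or 3.44 and 0.000997 without B4). It was as high in cerebella (mean 11.93) and SB tumours (11.28) as in controls.

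Signal at the array median in 1 model was about as common in each direction. Of the 246 probes at least 2-fold higher in *Ptch*+/- controls, 58 had a GTML mean near the array median, and of the 230 higher in GTML tumours, 64 had a control mean there. The other groups differed between these sets. For the 64 probes, SB tumours were near the array median for 62, cerebella for 46 and both for 44, by the group means. Single arrays could still be higher, as for ILMN_2980815, and for 20 probes every control, cerebellum and SB tumour was at or under 6.94. For the 58 probes, SB tumours were above the array median for all 58 and cerebella near it for 21, also by their means. Without B4 the sets held 60 and 70 probes. For the 70, SB tumours were near the array median for 66, cerebella for 45 and both for 43, and every array outside GTML for 21. Over all probes, 65.2% lay near the array median in controls, 65.8% in GTML tumours and 58.2% in all 4 groups. Most probes near it in controls were thus near it in cerebella and SB tumours too. The 44 of 64 are therefore no excess over what is usual for such probes.

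The cerebella lay on the *Ptch*+/- control side for most probes that were higher in GTML tumours, and were divided over those higher in controls. The cerebellum mean was nearer to the control mean for 196 of the 230 probes higher in GTML tumours (85.2%) and for 140 of the 246 higher in controls (56.9%), against 57.1% over all probes. For 86 of the 246 it exceeded the control mean, and for 44 it lay below the GTML mean. B4 bears on these shares: without it they were 75.6% (183 of 242), 47.8% (121 of 253) and 52.9%. The study's methods describe its transgenic lines, which gave the controls and the cerebella, as backcrossed to CBA, while GTML has its own strain label. A part of strain in these shares cannot be told apart from the model.

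**Figure D3:**
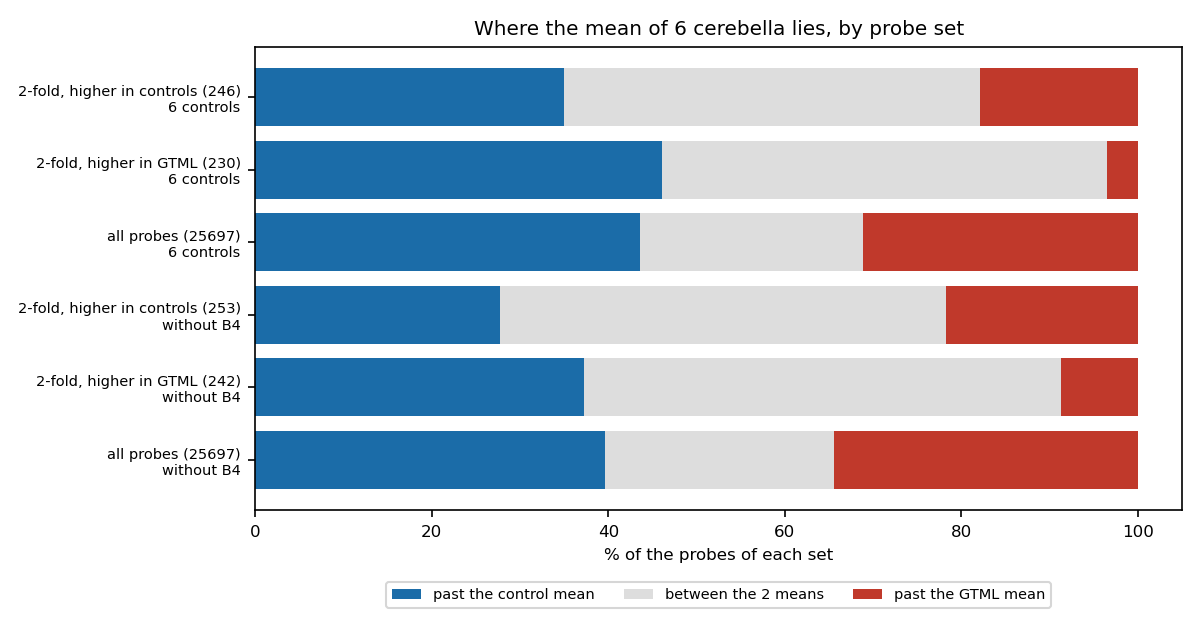
Percent of probes whose mean in 6 cerebella lies past the *Ptch*+/- control mean (blue), between the 2 model means (grey) or past the GTML mean (red), for the 2-fold probes in each direction and for all probes, with 6 controls and without B4. For probes higher in GTML tumours, the cerebella lay past the GTML mean for 8 of 230 with B4 and 21 of 242 without it.

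SB tumours, which share the *Ptch* mutation, the strain and the transposon with the controls, lay on the control side almost throughout: their mean was nearer to the control mean for 244 of the 246 and 229 of the 230 probes (99.2% and 99.6%), against 66.0% over all probes. Without B4 it was nearer for 249 of 253 and 241 of 242 (98.4% and 99.6%), against 63.9% over all probes. By array, a median of 94.75% of the 476 probes lay on the control side of the midpoint between the 2 models, and 28 of 30 SB tumours were over 90%. The 2 exceptions were SB arrays MB16 (69.75%) and MB10 (75.0%), of which MB16 falls within the range of the 6 cerebella (67.23% to 72.27%). Without B4 the median was 95.15%, 26 of 30 were over 90%, and MB16 (62.02%) lay within the range of the cerebella (58.38% to 65.05%), with MB10 at 67.47%.

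To place each of the 12 arrays by probes it had not helped to choose, each was set against a fit of the other 11. B4 lay on the GTML side of the midpoint for 125 of 495 probes (25.3%), and the other 5 controls for 3.24% to 7.19%. The GTML tumours lay on the control side for 1.30% (S1) to 6.85% (S6). The B4 crossings were found in both directions, for 28.5% of the probes higher in controls and 21.9% of those higher in GTML tumours. For 112 of the 125 the cerebellum mean was past the midpoint as well. Over all 495 probes, it was on the control side for 121 of the 253 higher in controls and 183 of the 242 higher in GTML tumours. For 46 probes B4 was within the GTML range, and for 208 within the range of the other 5 controls. Such range counts were not made for the other arrays.

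**Figure D4:**
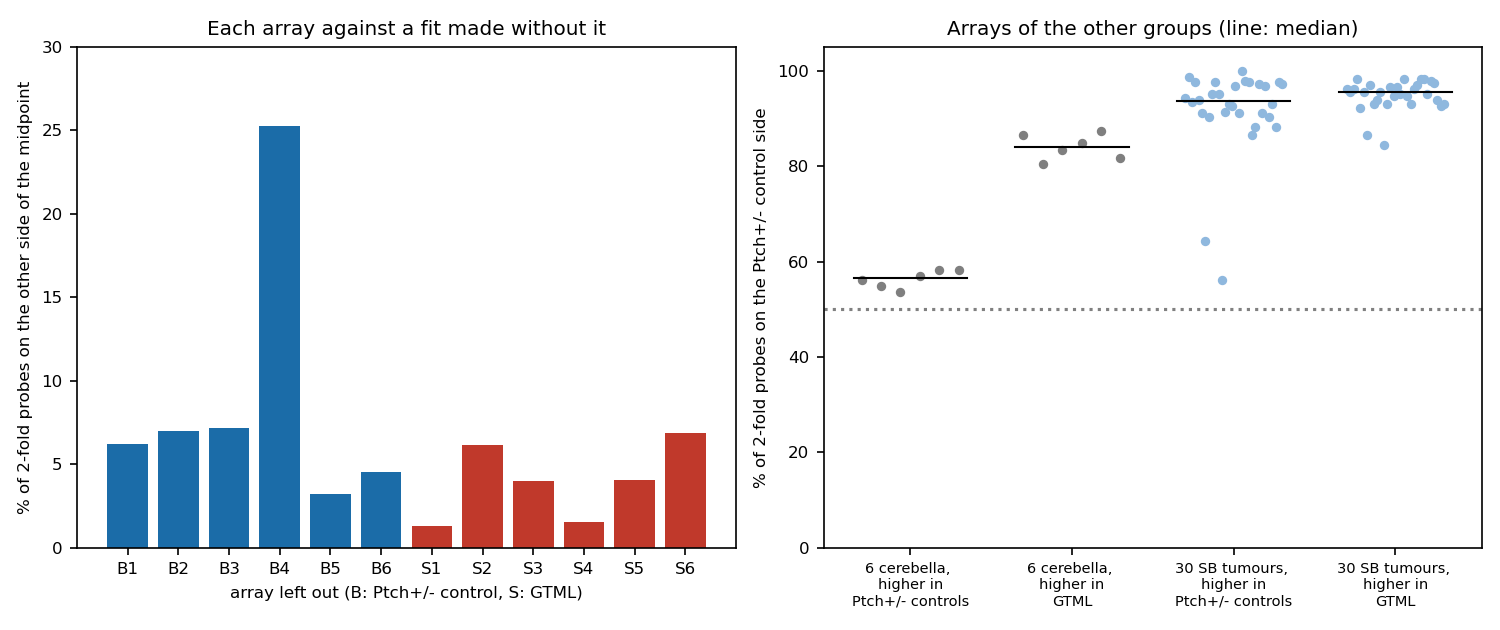
Left, percent of called 2-fold probes, from a fit without the array named on the x axis, for which that array lay on the other model's side of the midpoint (blue, *Ptch*+/- controls; red, GTML tumours): B4 reached 25.3% and all others were at 7.19% or less. Right, percent of the 2-fold probes on the *Ptch*+/- control side in each of 6 cerebella (grey) and 30 SB tumours (light blue), by direction, with the median as a line and 50% as a dotted line.

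The spread within each model was compared by array pairs and by SD. Pairs of GTML arrays correlated across probes at 0.960 to 0.989 (median 0.980, or 0.971 without S4) and pairs of controls at 0.902 to 0.987 (median 0.953, or 0.972 without B4), while pairs from the 2 models correlated at 0.872 to 0.936 (median 0.920). An SD above 1 on the log2 scale was seen for 88 probes in controls and 33 in GTML tumours, but for the 5 controls without B4 the number was also 33. An SD above 0.5 was seen for 743 and 240 probes, and for 398 without B4. The difference in spread between the models was not tested.

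**Figure D5:**
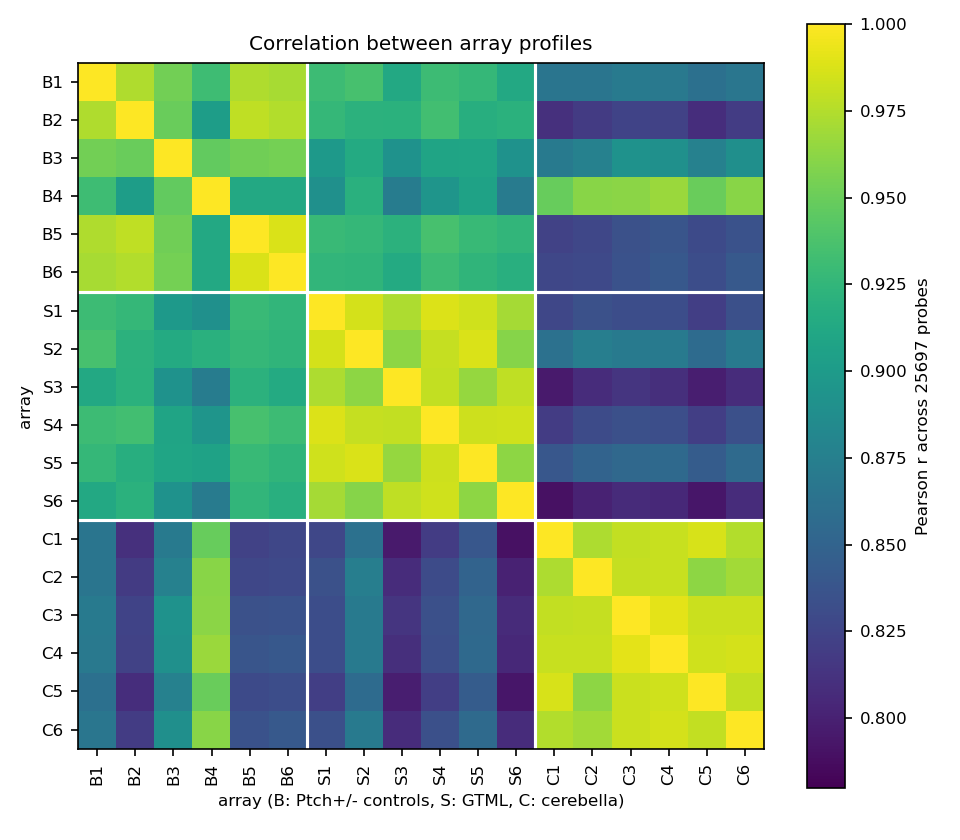
Pearson correlation across 25697 probes between the 6 *Ptch*+/- controls (B), 6 GTML tumours (S) and 6 cerebella (C), as colour from 0.78 to 1. B4 is the control with the lowest correlations to its own group and the highest to the cerebella.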

How the data were processed

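RNA of 12 tumours, extracted with a Qiagen lipid tissue kit and labelled with Illumina TotalPrep, was hybridised by the authors, who deposited log2 signals of 25697 probes per array. RMA is named in the submitters' processing notes with no version. The sources used here do not describe its steps, background correction among them, and give no detection calls. No filter or pseudocount was applied to the values. The number of arrays limits the precision.

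The groups came from the sample titles. Group means were compared with limma 3.58.1 (lmFit, eBayes) in R 4.3.3 on the 12 arrays, with Benjamini-Hochberg adjustment over all probes and a threshold of 0.05. Single genes also had exact permutation tests over all splits. The code was tested on simulated data. Named genes were those 8 that a supplementary table pairs with probes, and the 2 probes in each direction with the largest called differences. No other probe could be named, so the gene lists of cell types and pathways and their tests were not run. Members, groups and lists were chosen with earlier results of these data known.

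Alternatives were leaving out each array, fits with cerebella or all 48 arrays, age as covariate, the title number as a replicate block, the probes brighter than the median, quantile normalization, median centring, array weights, a trended and robust prior, and Student's and Welch's tests. A fit without B3 and B4 was added after seeing the data.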

Additional observations from a re-analysis of the deposited data

Results flagged for a closer look

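In groups of 6 arrays, 4 of the 44 values tested had a lowest or highest array far from the others by Dixon's criterion, which chance meets in about 1 in 20 groups. Control B4 had a correlation of 0.9338 with the rest of its group, where the next lowest control had 0.9701, and a signal of 7.50 for ILMN_2690126, where the next lowest was 10.7. GTML tumour S3 had 6.88 for *Igf2*, where the next lowest was 7.59. One cerebellum had 6.92 for ILMN_2690126, where the next highest was 6.78, both near the array median.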

How the results depend on the processing

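The count of called probes stayed between 2346 and 4419 under every alternative, and the count with 2-fold differences between 437 and 505, against 3414 and 476. Leaving out 1 array at a time gave 2736 (without S4) to 3670 (without B4) and 445 to 495. Probes higher in *Ptch*+/- controls numbered 1039 with Welch's test, against 1583, and the cause was not tested. With the methods' t-test 2907 probes were called after Benjamini-Hochberg adjustment and 5825 at an unadjusted p under 0.05, where limma gave 5986. Without B3 and B4, an alternative chosen after seeing the data, 3755 probes were called. Of the 288 values of single probes, none changed direction, 276 kept their side of the threshold, 7 lost a call (all *Kank1*) and 5 gained one (all *Igf2*). *Kank1* also lost its call with the methods' t-test (adjusted p = 0.0506), Welch's test (0.0662) and the replicate block (0.0678), and *Igf2* also passed with cerebella in the fit (0.0162), age as a covariate (0.0378) and among the probes brighter than the median (0.0273). The adjusted p of *Igf2* ranged from 0.0162 to 0.160.

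The title numbers 1 to 6 did not pair the samples: deviations of same-numbered arrays correlated at -0.375 to 0.262, and the best partner had the same number for 2 of 6. With the number as a replicate block, 2830 probes were called. The mean over several probes of a gene was not run, as probes have no gene names here. Signals near the array median limit the size of differences, since how far they lie above background is unknown.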
